A study of Mus musculus with 4 samples.

Results

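The transcripts described here are those encoded by the mouse mitochondrial genome, found as every row of the deposited tables whose gene name starts with mt-. There were 37 such genes among 39179: 13 messenger RNAs (mRNAs), 2 ribosomal RNAs (rRNAs) and 22 transfer RNAs (tRNAs) (mm10, GRCm38, chromosome M). The 13 mRNAs and both rRNAs averaged 50 normalised counts (estimated reads divided by 1 factor per library) or more across the 4 libraries and were compared. None of the 22 tRNAs reached that level.

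RNA from brain cortex was measured in 4 libraries: wildtype littermates left undisturbed (WT BL), wildtype littermates kept awake by gentle handling (WT SD), BK deficient mice left undisturbed (KO BL) and BK deficient mice kept awake (KO SD). BK is the large-conductance potassium channel opened by calcium and depolarisation. Every mouse came from a first-generation cross of C57Bl6/J with Sv129 (F1), handling lasted 4 h from light onset, and tissue was taken at ZT4, where ZT counts hours from light onset. Each library was made from total RNA pooled over 4 animals, so that every group had 1 library and no replicate check, and the deleted part of the BK gene and the age and sex of the mice are absent from the labels. No test between groups is therefore given, and intervals cover the counting of reads alone, not the spread between animals or libraries.

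The mitochondrial genome is a small circle that is transcribed from both strands into long precursors. The tRNAs lie between the other genes and are cut out, which releases the rRNAs and mRNAs, and the rRNAs form the core of the mitochondrial ribosome. The mRNAs code for membrane subunits of respiratory complexes I, III and IV and of ATP synthase (complex V), while all other subunits of these complexes are made from nuclear genes. Cortical neurons depend on oxidative phosphorylation for the ion pumping that follows synaptic activity.

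Several of these genes share bases, and the sequences that matter for reading the values are shown first, 5′ to 3′, from the GENCODE M21 transcripts on GRCm38. The gene mt-Atp8 (chrM:7766-7969, plus strand) codes for a small subunit of ATP synthase. It is 204 bases long, and its last 43 bases, in capitals, are also the first 43 bases of mt-Atp6, whose start codon opens the capitals:
mt-Atp8: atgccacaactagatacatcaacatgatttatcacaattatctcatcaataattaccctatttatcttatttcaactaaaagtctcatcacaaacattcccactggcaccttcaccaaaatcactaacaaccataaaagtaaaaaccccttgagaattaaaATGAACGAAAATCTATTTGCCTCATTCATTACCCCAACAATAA
The gene mt-Nd4l (chrM:9877-10173, plus strand, 297 bases) codes for a small subunit of complex I and shares its last 7 bases, in capitals, with mt-Nd4. The nuclear pseudogene Gm10222 (chr1:24612407-24612700, minus strand, 294 bases in GENCODE M21) is shown under it because all 294 of its bases are identical to mt-Nd4l:
mt-Nd4l: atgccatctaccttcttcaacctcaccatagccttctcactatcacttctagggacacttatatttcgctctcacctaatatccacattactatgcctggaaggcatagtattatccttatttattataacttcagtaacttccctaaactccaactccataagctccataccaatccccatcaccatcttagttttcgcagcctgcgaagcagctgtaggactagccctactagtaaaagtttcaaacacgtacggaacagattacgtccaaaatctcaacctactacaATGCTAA
Gm10222: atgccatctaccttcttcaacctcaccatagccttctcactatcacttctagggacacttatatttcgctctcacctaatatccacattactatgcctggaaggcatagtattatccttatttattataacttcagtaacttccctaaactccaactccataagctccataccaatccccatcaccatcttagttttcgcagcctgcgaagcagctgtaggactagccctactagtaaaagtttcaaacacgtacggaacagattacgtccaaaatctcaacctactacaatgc
On opposite strands, mt-Nd5 and mt-Nd6 end over the same 14 bases (chrM:13552-13565), shown in capitals in the last 60 bases of each gene. The pair is shown because its values differed in opposite directions in the wildtype pools:
mt-Nd5 3′ end: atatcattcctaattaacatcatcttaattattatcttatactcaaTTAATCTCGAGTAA
mt-Nd6 3′ end: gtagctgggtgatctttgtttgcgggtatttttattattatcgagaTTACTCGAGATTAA

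The deposited values summed to 34491804, 38733083, 34693260 and 36872561 normalised counts for WT BL, WT SD, KO BL and KO SD, or about 30051444, 34867935, 27705354 and 42021528 reads. Kcnma1, which codes for the pore of the BK channel, stood at 614, 177, 447 and 491 normalised counts, so that its level did not separate the genotypes, which are named as labelled; whether the counted exons include the deleted part is not given in the sources used here. Values listed without library names below follow the same order (WT BL, WT SD, KO BL, KO SD). Every listed marker of excitatory and inhibitory neurons, astrocytes, oligodendrocytes, microglia and endothelium was above 0 in all libraries. WT SD stood apart: over 13550 genes its correlation with the other libraries was 0.877 to 0.911, against 0.956 to 0.972 among the other 3. Differences also followed GC content, with rank correlations across genes of 0.33 for WT SD over WT BL, -0.71 for KO SD over KO BL, 0.80 for KO BL over WT BL and -0.38 for KO SD over WT SD. Values called corrected below are those from which a smooth trend with GC content and transcript length was removed. That trend is poorly anchored for the mitochondrial mRNAs, since 12 of the 13 had a GC content under the lowest 5% of compared genes (31.9% to 41.1%, against a median of 50.8%).

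Mitochondrial transcripts together made up 13.4% of all normalised counts in WT BL, with a 95% exact binomial interval of 13.39% to 13.42%. For WT SD the share was 13.5% (13.44% to 13.47%), for KO BL 12.7% (12.65% to 12.68%) and for KO SD 19.4% (19.39% to 19.41%). KO SD had the highest share and the other 3 lay close together. KO SD was also the library with the highest sum of 6 astrocyte markers (187187, 175523, 148826 and 257803 normalised counts). The largest part of that sum was Slc1a2 (153900 in KO SD). The markers Aldoc and Gfap were instead highest in WT SD, at 58750 and 5175 against 47890 and 4929 in KO SD. KO SD had the lowest sum of 5 red blood cell markers (46179, 38351, 42136 and 12182). The part of either cell type in the mitochondrial share was not tested. In bulk cortex, more mitochondrial RNA per cell and more cells rich in mitochondria cannot be told apart. The make-up of the total differed too. The rRNAs took 7.61%, 24.7%, 7.36% and 11.5% of the mitochondrial total. Both baseline libraries were alike in this share, and both sleep-deprived libraries exceeded them, WT SD most. Per transcript length the same shares were 5.38%, 17.9%, 5.21% and 8.59%, in the same order.

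**Figure D1:**
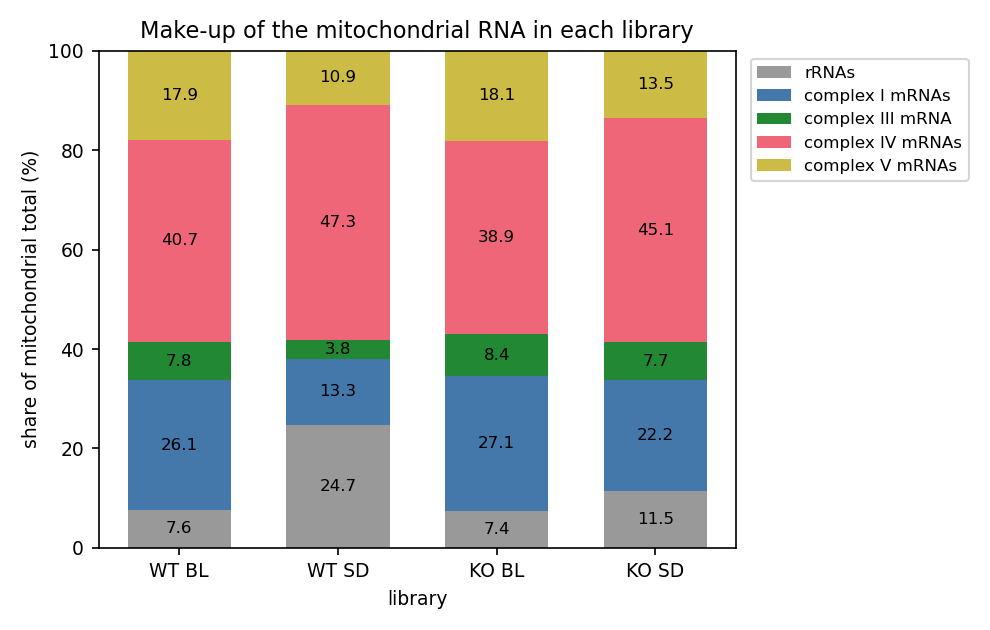
Share of the summed mitochondrial normalised counts (%, vertical axis) taken by the rRNAs and by the mRNAs of each respiratory complex, in the 4 libraries (1 pool each). The rRNA part is 24.7% in WT SD against 7.61% in WT BL, and the complex I part 13.3% against 26.1%.

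Moving from one library's make-up to another's was used as a measure of difference, taken as the percent of the mitochondrial total that would have to shift between transcripts. It was 2.09% between WT BL and KO BL, 11.1% between KO BL and KO SD and 27.9% between WT BL and WT SD. Among the 13 mRNAs alone the values were 2.12%, 9.22% and 21.9%. The baseline pools of both genotypes were thus nearest to each other, and WT SD was farthest from every other library, at 24.5% from KO SD and 29.5% from KO BL. This measure does not depend on how the libraries were scaled to one another.

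The rRNAs differed most plainly between sleep-deprived and baseline pools. The gene mt-Rnr1 (12S rRNA of the small ribosomal subunit, chrM:70-1024) stood at 147300, 520800, 134400 and 337400 normalised counts. The values of mt-Rnr2 (16S rRNA of the large subunit, chrM:1094-2675) were 204600, 768700, 189000 and 482900 in the same order. Both sleep-deprived pools were higher than both baseline pools for each rRNA. Summed, the rRNAs were 3.66-fold higher in WT SD than in WT BL and 2.54-fold higher in KO SD than in KO BL. After correction the log2 differences stayed above 0, at 1.63 (mt-Rnr1) and 2.08 (mt-Rnr2) in the wildtype pair, but at 0.45 for both in the knockout pair, under the 1.5-fold mark. Set against the mRNAs of the same library, the rRNAs amounted to 8.24%, 32.9%, 7.95% and 12.95% of the mRNA sum. The ratio of 12S to 16S rRNA was steadier, at 72.0%, 67.8%, 71.1% and 69.9%. Whether and how rRNA was removed before sequencing is not given in the sources used here, and its part in these differences was not tested.

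Complex I, which takes electrons from NADH, has 7 mitochondrial subunits, and their transcripts split into groups. The gene mt-Nd1 (chrM:2751-3707) stood at 331900, 219900, 334100 and 425300 normalised counts. Its neighbour mt-Nd2 (chrM:3914-4951) stood at 256800, 93650, 250000 and 305000. WT SD was lowest and KO SD highest for both. Values of mt-Nd4 (chrM:10167-11544) were 371700, 158400, 377800 and 570900. The same order held for mt-Nd4l, at 13150, 2018, 13790 and 19360. In mt-Nd5 (chrM:11742-13565), the longest mRNA, they were 159200, 30380, 149400 and 172300. All 5 of these transcripts had their lowest value in WT SD, by 1.51-fold (mt-Nd1) to 6.52-fold (mt-Nd4l) against WT BL.

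The other 2 complex I transcripts were ordered differently. The short mt-Nd3 (chrM:9459-9806) stood at 71870, 185400, 65280 and 92880, highest in WT SD by 2.00-fold over KO SD. The gene mt-Nd6 (chrM:13552-14070), the one mRNA gene on the minus strand, stood at 1658, 4212, 1261 and 2971, with both sleep-deprived pools above both baseline pools. It was the least abundant mRNA in 3 libraries, with 3195 normalised counts per kb in WT BL against 1076650 for mt-Atp6. In WT SD mt-Nd4l was lower still per kb, at 6795 against 8116 for mt-Nd6, but with the equal counts listed for its nuclear copy Gm10222 added it was higher, at 13589. Where the counting did not use strand, which is not given in the sources used here, reads over the 14 shared bases of mt-Nd5 and mt-Nd6, and antisense RNA of either gene, could not be assigned.

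Complex III is represented by mt-Cytb (chrM:14145-15288), the cytochrome b of the complex that passes electrons to cytochrome c. It stood at 359200, 195900, 371000 and 549100, again lowest in WT SD and highest in KO SD. The complex IV transcripts code for the catalytic core of cytochrome c oxidase, where oxygen is reduced, and none of the 3 was lowest in WT SD. The gene mt-Co1 (chrM:5328-6872) stood at 845500, 842200, 784400 and 1641000, so that WT SD and WT BL were nearly level and KO SD stood far above the rest. Values of mt-Co2 (chrM:7013-7696) were 381300, 514000, 343200 and 696000. Those of mt-Co3 (chrM:8607-9390) were 653000, 1107000, 582900 and 889400, and for it WT SD was the highest library. Both sleep-deprived pools exceeded both baseline pools for mt-Co2 and mt-Co3, and mt-Co3 was the most abundant gene of all 39179 in WT SD, a place that mt-Co1 held in the other 3 libraries.

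ATP synthase has 2 mitochondrial subunits, both in its membrane part, through which protons flow. The gene mt-Atp8 stood at 93140, 7163, 89310 and 90220. The other 3 libraries thus lay near each other and WT SD far under them, the widest gap to WT BL of any of the 13 mRNAs. Its partner mt-Atp6 (chrM:7927-8607) stood at 733200, 561500, 707400 and 877900, lowest in WT SD, by 1.31-fold against WT BL. Per length, mt-Atp6 was the highest mRNA in WT BL, KO BL and KO SD, and mt-Co3 in WT SD.

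**Figure D2:**
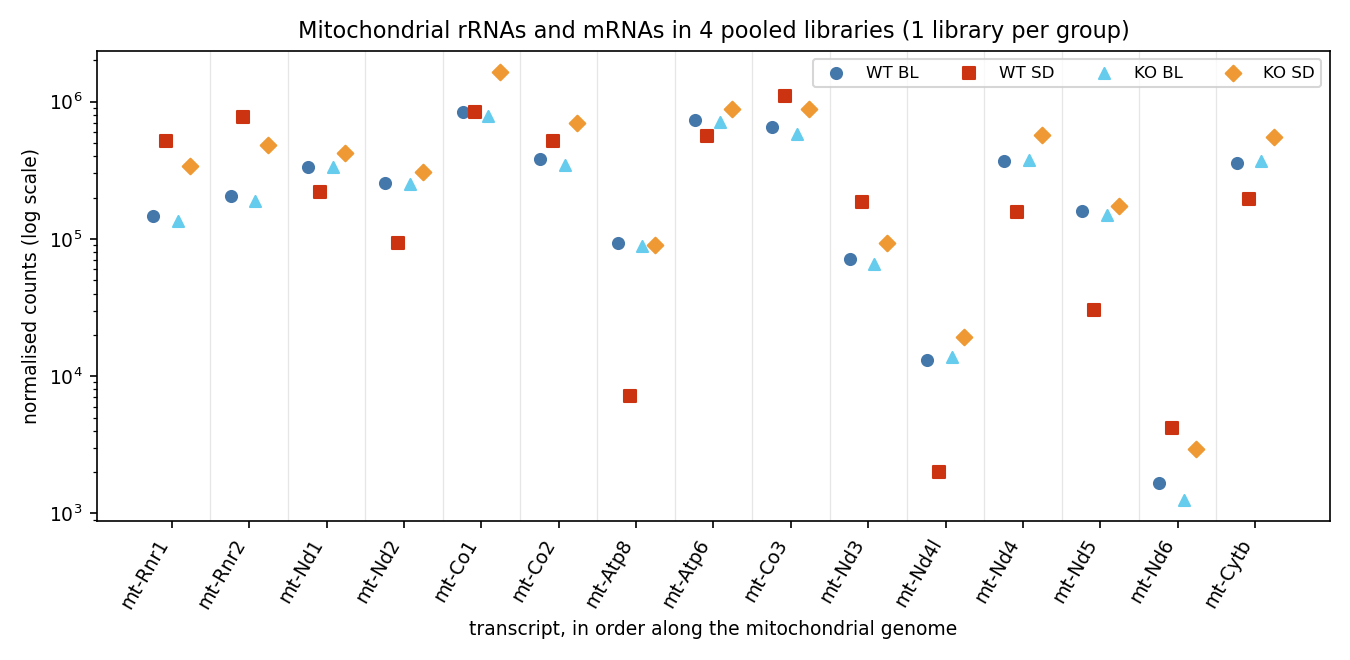
Normalised counts (vertical log axis) of the 2 rRNAs and 13 mRNAs in genome order (horizontal axis), 1 point per library. WT SD is the lowest point for 8 mRNAs, such as mt-Atp8 at 7163, and the highest for both rRNAs and for mt-Co3, mt-Nd3 and mt-Nd6.

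The tRNAs were close to unread. Of 22, 17 were listed at 0 in all libraries and 5 had a value in at least 1: mt-Tm (methionine), mt-Ti (isoleucine), mt-Tl1 (leucine), mt-Tn (asparagine) and mt-Ts1 (serine). The value of mt-Tm was 3.44, 4.44, 1.25 and 2.63 normalised counts, or 3, 4, 1 and 3 reads. The other 4 were listed at 0 in both baseline libraries and reached at most 4.44 (mt-Ti in WT SD). All tRNAs together came to 3, 14, 1 and 6 reads, too few to compare. A listed 0 allows up to 3 reads, which is 3.44, 3.33, 3.76 and 2.63 normalised counts in the respective libraries. Their genes are 59 to 75 bases long, and the fragment length kept for sequencing is not given in the sources used here.

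By the annotated strand of each gene, genes on the plus strand as numbered in mm10 gave 99.96%, 99.92%, 99.97% and 99.96% of mitochondrial counts. Genes on the minus strand, mt-Nd6 and 8 tRNA genes, gave 0.0359%, 0.0809%, 0.0287% and 0.0415%. Whether the counting used the strand of the reads is not given in the sources used here, so these shares may include antisense reads. The minus-strand sum was 2.54-fold higher in WT SD than in WT BL and 2.36-fold higher in KO SD than in KO BL, nearly all of it mt-Nd6. The plus-strand sum was 1.13-fold and 1.63-fold higher in the same pairs.

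By complex, the share of complex I among the mitochondrial mRNAs was 28.2%, 17.7%, 29.3% and 25.1%. That of complex IV was ordered the other way, at 44.0%, 62.8%, 42.0% and 51.0%. The complex III transcript took 8.41%, 4.995%, 9.12% and 8.67%, and complex V 19.3%, 14.5%, 19.6% and 15.3%. In both genotypes the sleep-deprived pool thus held a larger share of complex IV and smaller shares of complexes I, III and V than its baseline pool, with narrower gaps in the knockout pair. Among the complex IV transcripts, mt-Co3 took 28.2% of the mRNA sum in WT SD against 15.3% in WT BL, and mt-Co1 took 25.9% in KO SD against 19.3% in KO BL.

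The first comparison set sleep-deprived against undisturbed wildtype mice (WT SD over WT BL). Among the 13 mRNAs, 7 were at least 1.5-fold lower and 3 at least 1.5-fold higher, with a median log2 difference of -0.59 against -0.04 over all genes compared. Of all 13550 genes, 24.1% were as much lower and 24.5% as much higher (48.6% in either direction), so that differences of this size were common in this pair. The lower ones were mt-Atp8 (-3.70, counting interval -3.74 to -3.66), mt-Nd4l (-2.70), mt-Nd5 (-2.39), mt-Nd2 (-1.46), mt-Nd4 (-1.23), mt-Cytb (-0.87) and mt-Nd1 (-0.59). The higher ones were mt-Nd3 (1.37), mt-Nd6 (1.34, counting interval 1.26 to 1.43) and mt-Co3 (0.76), beside both rRNAs (1.82 and 1.91). After correction 8 mRNAs were lower and 1 (mt-Nd6) higher, against 18.2% and 18.5% of all genes, while mt-Nd3 and mt-Co3 stood at 0.54 and 0.29 and mt-Atp6 at -0.90. The authors' own log2 ratios in this pair, set as WT SD over WT BL, were -3.701 for mt-Atp8, -2.703 for mt-Nd4l and -2.39 for mt-Nd5. Their FDRs were computed from single libraries and are not used here. The sum of 6 oligodendrocyte markers was 35376 normalised counts in WT BL and 69161 in WT SD, with 4 of the 6 higher at deposited values and after correction. It was 61633 in KO BL and 61902 in KO SD, so that WT BL was the low library. In KO BL over WT BL 5 of the 6 markers were higher, at deposited values and after correction. The part of oligodendrocytes in these differences was not tested.

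Across the 13 mRNAs, the rank correlation of the wildtype difference was -0.05 with GC content, -0.08 with length and 0.01 with position along the genome, as a description of transcripts that share their libraries. With both rRNAs included, over 15 transcripts, the same correlations were -0.19, 0.08 and -0.34. Neighbours on the circle differed in opposite directions: mt-Co3 and mt-Nd3 were higher, and mt-Nd4l and mt-Nd4, next after mt-Nd3, were lower.

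**Figure D3:**
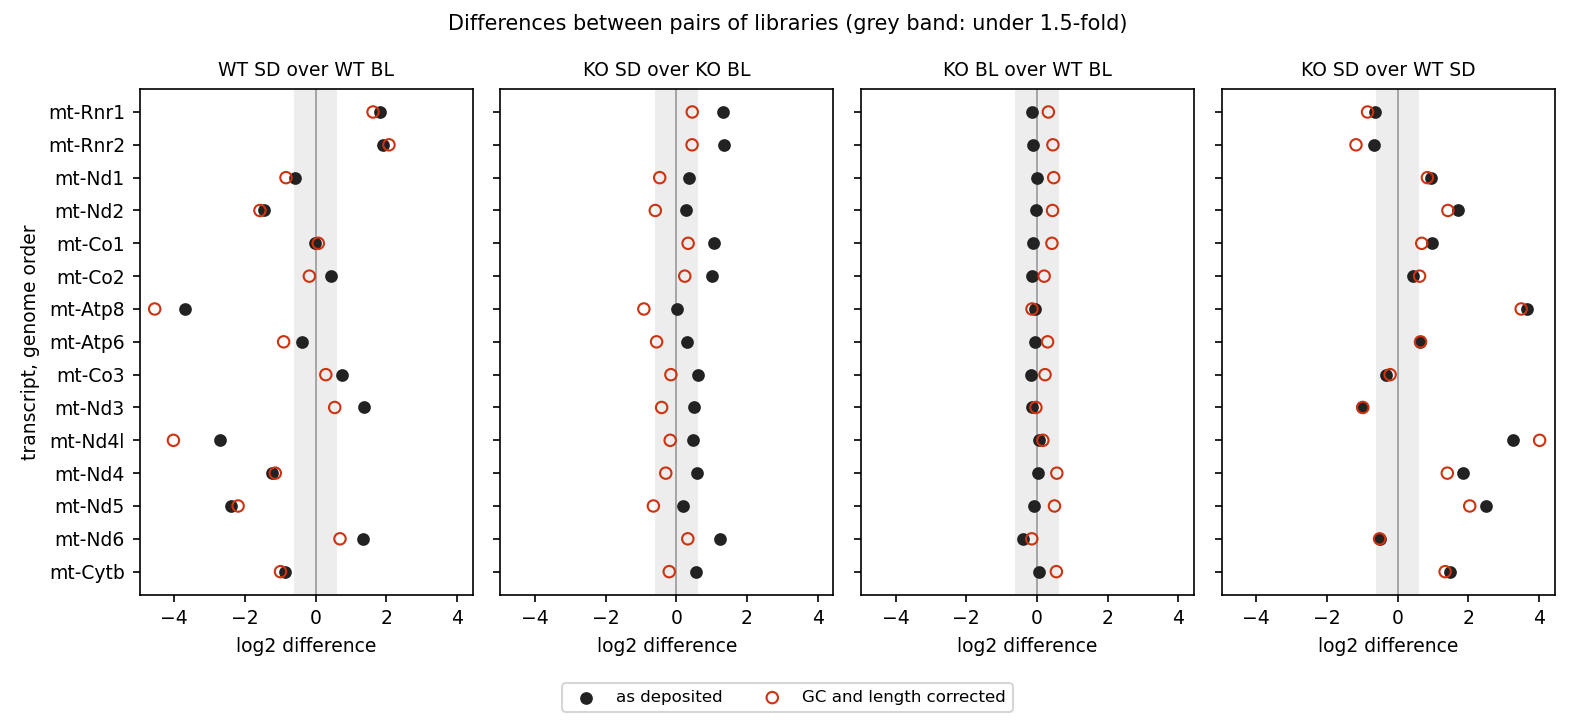
Log2 differences (horizontal axes) of the 15 abundant mitochondrial transcripts in genome order (vertical axis) for the 4 pairs of libraries, as deposited (filled) and corrected for GC content and length (open). The wildtype sleep deprivation panel spreads from -3.70 (mt-Atp8) to 1.91 (mt-Rnr2), and in the baseline genotype panel each filled point lies within the grey 1.5-fold band.

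The second comparison did the same in BK deficient mice (KO SD over KO BL). All 13 mRNAs lay above 0 at deposited values, 5 of them at least 1.5-fold (16.2% of all genes were as much higher), and none was 1.5-fold lower (16.4% of all genes, and 32.6% in either direction). The share of all genes above 0 was not counted, and the all-gene median was -0.04. The median of the 13 mRNAs, 0.51, was 0.42 with equal library totals and 0.54 with equal totals outside the mitochondrial genome. It went to -0.30 after correction, so the direction of the group was not settled. Scaling to equal mitochondrial mRNA gave -0.13, but it sets the sum of these mRNAs level beforehand and cannot bear on their common direction. After correction 0 mRNAs were higher and 3 lower, against 7.79% and 5.34% of all genes. The highest were mt-Nd6 (1.24, counting interval 1.13 to 1.34), mt-Co1 (1.06), mt-Co2 (1.02), mt-Co3 (0.61) and mt-Nd4 (0.60). Both mt-Co3 and mt-Nd4 reversed after correction (-0.15 and -0.30) and under scaling to equal mitochondrial mRNA (-0.03 and -0.04). The smallest difference was that of mt-Atp8 (0.01, counting interval 0.00 to 0.03), and its corrected value was -0.92. Within the mRNA sum, which no scaling of libraries can alter, mt-Nd6 (0.60), mt-Co1 (0.43) and mt-Co2 (0.38) had a larger share (log2 ratio of shares) and mt-Atp8 (-0.62), mt-Nd5 (-0.43) and mt-Nd2 (-0.35) a smaller one. The rRNAs were higher by 1.33 (mt-Rnr1) and 1.35 (mt-Rnr2).

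The wildtype and knockout pairs hold no library in common. Of the 15 abundant transcripts, 4 were at least 1.5-fold higher in both: mt-Rnr1, mt-Rnr2, mt-Co3 and mt-Nd6, which is 26.7%, against 3.76% of all genes. None was lower in both, against 4.15% of all genes. After correction 0 of the 15 passed the mark in both pairs: in the knockout pair mt-Rnr1 (0.45), mt-Rnr2 (0.45) and mt-Nd6 (0.33) were above 0 but under 1.5-fold, and mt-Co3 was at -0.15. The transcript mt-Nd4 was past 1.5-fold in opposite directions, lower in WT SD and higher in KO SD, as were 3.21% of all genes, and this after correction held for the wildtype pair (-1.14) and not for the knockout pair (-0.30).

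The third comparison asked how the genotypes differed at rest (KO BL over WT BL). No mitochondrial mRNA or rRNA reached 1.5-fold, where 16.4% of all genes were as much higher and 10.7% as much lower (27.1% in either direction). The mRNAs ranged from -0.39 (mt-Nd6, counting interval -0.51 to -0.28) to 0.07 (mt-Nd4l), with a median of -0.06 at deposited values and 0.30 after correction. Apart from mt-Nd6, the differences lay between -0.16 (mt-Co3) and 0.07. Across the 13 mRNAs the log2 levels of both baseline pools correlated at 0.999, as a description of transcripts that share libraries, against 0.852 for WT BL with WT SD.

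The fourth comparison asked how the genotypes differed after sleep deprivation (KO SD over WT SD). It shares a library with each of the first and second comparisons. Of the 13 mRNAs 9 were at least 1.5-fold higher in KO SD (19.8% of all genes) and 1 was lower (21.1% of all genes, and 40.8% in either direction). The differences ran from -0.997 (mt-Nd3) to 3.65 (mt-Atp8), with mt-Nd4l at 3.26, mt-Nd5 at 2.50 and mt-Nd4 at 1.85. Both rRNAs were lower in KO SD (-0.63 and -0.67). After correction 10 mRNAs were higher and 1 lower, against 14.5% and 12.7% of all genes. The difference of mt-Atp6 (0.64) went to -0.05 when libraries were scaled to equal mitochondrial mRNA. The authors' own log2 ratios, set as KO SD over WT SD, were 3.655 for mt-Atp8, 3.262 for mt-Nd4l and 2.504 for mt-Nd5, from single libraries.

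Neighbouring genes on shared RNAs allow a comparison inside each library. The reading frames of mt-Atp8 and mt-Atp6 are carried by 1 mature mRNA, as are those of mt-Nd4l and mt-Nd4, which is textbook knowledge of this genome. The value of mt-Atp8 amounted to 12.7% of that of mt-Atp6 in WT BL, with a counting interval of 12.6% to 12.8%. It was 1.28% (1.24% to 1.31%) for WT SD, 12.6% (12.5% to 12.7%) for KO BL and 10.3% (10.2% to 10.3%) for KO SD. Per length the same ratios were 42.4%, 4.26%, 42.1% and 34.3%. WT SD stood apart, and no scaling of libraries alters these ratios. The value of mt-Nd4l was 3.54% of that of mt-Nd4 for WT BL, 1.27% for WT SD, 3.65% for KO BL and 3.39% for KO SD, with WT SD again lowest. The short genes in both pairs are the ones that were lower in WT SD relative to their partner, and with 204 and 297 bases they are the shortest mRNA genes of the circle. For the next shortest, mt-Nd3 (348 bases), the value set against WT BL, not against a partner, was higher in WT SD (log2 difference 1.37, corrected 0.54). What read length and fragment size the libraries had is not given in the sources used here, and their part was not tested.

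**Figure D4:**
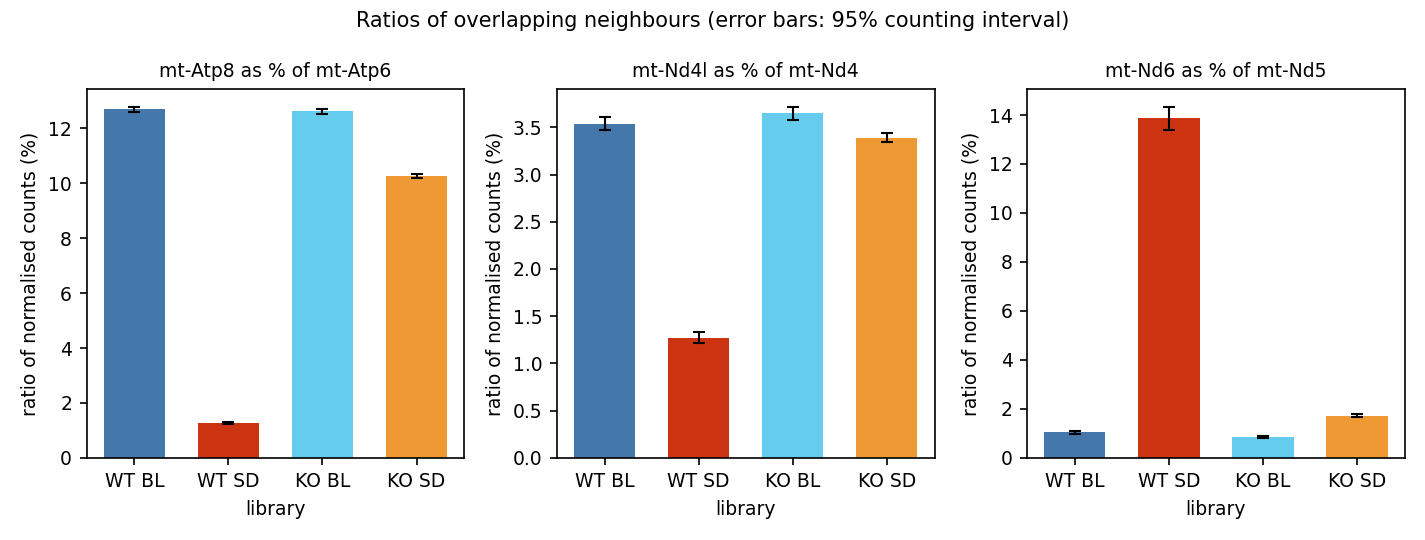
Ratios of normalised counts (%, vertical axes) of 3 overlapping gene pairs in the 4 libraries, with 95% counting intervals as error bars. For mt-Atp8 over mt-Atp6 the WT SD bar is at 1.28% and the others at 10.3% to 12.7%, and for mt-Nd6 over mt-Nd5 it is at 13.9% against 0.844% to 1.72%.

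On opposite strands, mt-Nd6 amounted to 1.04%, 13.9%, 0.844% and 1.72% of mt-Nd5. Further along the precursor of the plus strand, mt-Co3 was 89.1% of its neighbour mt-Atp6 for WT BL, 197% for WT SD, 82.4% for KO BL and 101.3% for KO SD. The ratio of mt-Nd5 to mt-Cytb was 44.3%, 15.5%, 40.3% and 31.4%. In each of these 3 pairs KO SD lay on the same side of the baseline libraries as WT SD, at a smaller distance. That did not hold for mt-Nd3 over its neighbour mt-Co3, at 11.0%, 16.7%, 11.2% and 10.4%, where KO SD was the lowest library and WT SD the highest.

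Values of mt-Nd4l carry a further limit. Those of the nuclear pseudogene Gm10222 were equal to those of mt-Nd4l to all deposited digits in the 4 libraries (13150, 2018, 13790 and 19360). How reads of the shared sequence were assigned is not given in the sources used here, so the level of mt-Nd4l is uncertain, while a sum over both genes has the same fold changes. GENCODE M21 holds 11 nuclear gene models that match a mitochondrial transcript over at least 50 bases at 95% identity, and 5 of them are in the deposited tables. The other 4 of these 5 had means of 3.07 to 29.0 normalised counts.

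The nuclear-encoded partners of these subunits were counted from lists of subunits by complex, and 74 of 75 listed genes were compared. In WT SD 63 were at least 1.5-fold higher than in WT BL and none lower, with a median of 1.58, where 24.5% of all genes were as much higher and 24.1% lower. After correction the counts were 35 and 3 and the median 0.53, against 18.5% and 18.2% of all genes. For complex I the nuclear median was 1.78 against -1.23 for the 7 mitochondrial mRNAs. It was 0.99 against -0.87 for complex III (1 mitochondrial mRNA), 1.80 against 0.43 for complex IV (3) and 1.52 against -2.04 for complex V (2). The last value is the midpoint of mt-Atp8 (-3.70) and mt-Atp6 (-0.38), whose summed counts differed by -0.54 on the log2 scale. After correction the pairs of medians were 0.63 and -1.14, 0.43 and -0.99, 0.49 and 0.08, and 0.46 and -2.73. The nuclear genes furthest up were Ndufa2 (793 to 8494 normalised counts, corrected log2 difference 2.05) for complex I, Uqcr11 (909 to 8626, 1.38) for complex III, Cox6c (5677 to 29720, 2.06) for complex IV and Atp5e (1905 to 17110, 2.20) for complex V. For complex II, which has no mitochondrial subunit, 1 of 4 was higher, Sdhb (3439 to 7686). Differences over all genes in this pair had a rank correlation of -0.49 with length.

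In KO SD over KO BL 7 nuclear subunits were higher and 1 lower, and the median was 0.17 (0.08 after correction), where 16.2% of all genes were higher and 16.4% lower. Ndufs4 (2091 to 3910) and Uqcrh (6480 to 10600) were among the higher, and Uqcrc1 (8501 to 5638) was the lower one. Their corrected log2 differences were 0.35, 0.42 and -0.06, all under the 1.5-fold mark. Corrected counts were 4 higher and 1 lower, against 7.79% and 5.34% of all genes. The complex medians of nuclear and mitochondrial subunits were 0.17 and 0.49 for complex I, 0.06 and 0.57 for complex III, 0.30 and 1.02 for complex IV, and 0.21 and 0.16 for complex V. After correction the mitochondrial medians were -0.41, -0.20, 0.24 and -0.74, so that their place relative to the nuclear ones depended on it. At baseline 18 of the 74 nuclear subunits were higher in KO BL than in WT BL and none lower, for example Ndufb7 (601 to 1555), against 16.4% and 10.7% of all genes. After correction 5 were higher, against 3.19% of all genes. In KO SD over WT SD 63 were lower and none higher, with a median of -1.21, against 21.1% and 19.8% of all genes. After correction 24 were lower and 2 higher (median -0.39), against 12.7% and 14.5% of all genes.

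**Figure D5:**
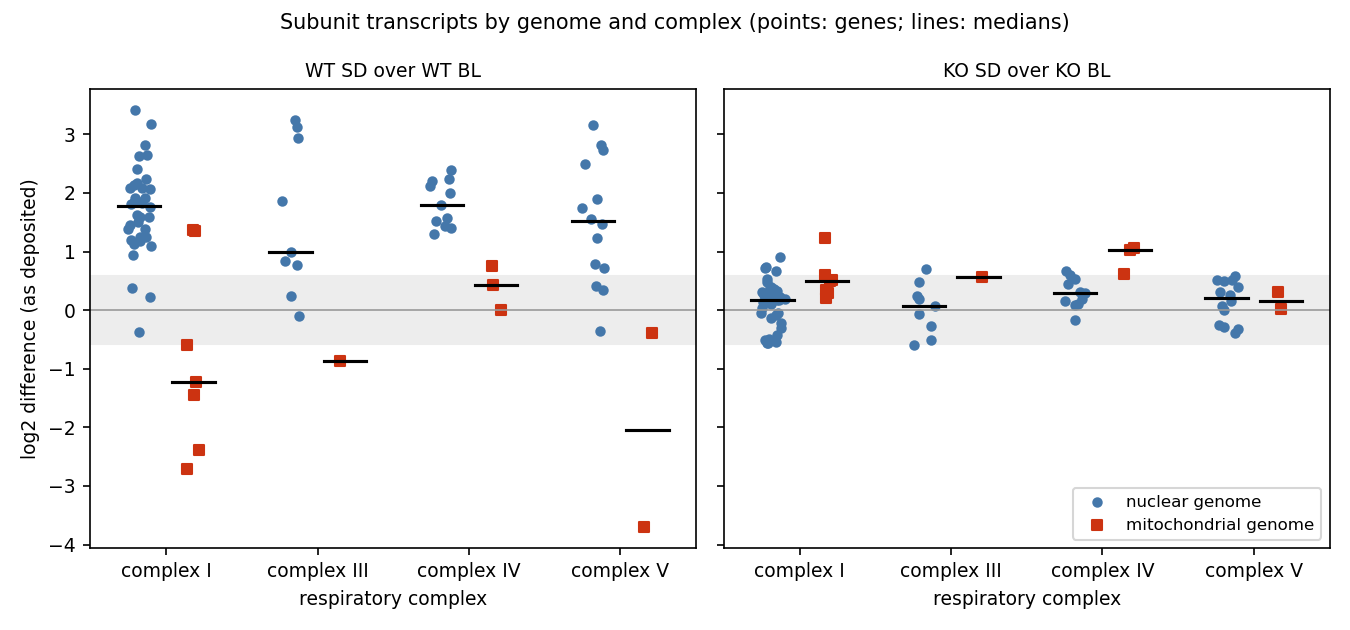
Log2 differences (vertical axis, deposited values) of nuclear (circles) and mitochondrial (squares) subunit transcripts of complexes I, III, IV and V for WT SD over WT BL (left) and KO SD over KO BL (right), with lines at the medians. In the wildtype pair the complex I medians lie at 1.78 and -1.23, and in the knockout pair at 0.17 and 0.49.

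Genes that make, process and degrade mitochondrial RNA, with regulators of mitochondrial biogenesis, formed a list of 57, of which 55 were compared. In WT SD over WT BL 19 stood higher and 6 lower, the median being 0.27 (12, 5 and 0.16 after correction), where 24.5% of all genes were higher and 24.1% lower. Of 16 genes of transcription and replication 6 were higher, Top1mt (a mitochondrial topoisomerase, 219 to 572) furthest, and none was lower. Polrmt, the mitochondrial RNA polymerase, stood at 264, 541, 669 and 388. Of 15 genes of RNA processing and modification 7 were higher and 2 lower, from Ftsj2, a ribose methyltransferase of the 16S rRNA (146 to 462), to Nsun3, a methyltransferase of the methionine tRNA (408 to 237). Among 19 genes of RNA stability and decay 4 were higher and 3 lower. Slirp, which with Lrpprc protects mitochondrial mRNAs, was furthest up (838 to 2160) and Fastkd1 furthest down (506 to 247). Of 5 regulators, Esrra was furthest up (581 to 1060; log2 difference 0.87, but -0.91 after correction) and Gabpa furthest down (553 to 347).

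In the knockout pair the same list had 13 higher and 6 lower in KO SD over KO BL at deposited values, beside 16.2% and 16.4% of all genes. After correction 1 passed in each direction, beside 7.79% and 5.34%. The furthest there were Mterf1b (35.1 to 75.5), Nsun3 (204 to 395), Pnpt1, an RNA-degrading enzyme (345 to 642), and Gabpa (392 to 716) among the higher. Polrmt (669 to 388), the pseudouridine synthase Pus1 (560 to 321), the helicase Dhx30 (3793 to 2106) and Esrra (1263 to 742) were the furthest among the lower. Those past 1.5-fold after correction were Nsun3 (0.63) and Dhx30 (-0.60), while Polrmt stood at -0.18 and Esrra at -0.03. At baseline 6 were higher and 5 lower in KO BL, beside 16.4% and 10.7% of all genes, led by Polrmt (log2 difference 1.34, corrected 0.64) and by Nsun3 (-0.99, corrected -0.66). In KO SD over WT SD 5 were higher, Pnpt1 furthest (1.08), and 13 lower, Ftsj2 furthest (-1.26), beside 19.8% and 21.1% of all genes.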

How the data were processed

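RNA of mouse brain cortex was sequenced as 4 pooled libraries. The submitters' processing notes name RSEM 1.2.19, edgeR and the builds mm10 and GRCm38, without the step each served, and the aligner is not given in the sources used here. The library values, per the file headers and values, are a signal that the authors deposited: estimated counts divided by 1 factor per library, to 4 significant digits. Per the file headers, the authors also deposited a GC fraction, a transcript length, a log2 ratio and a p-value with an FDR for each pair of single libraries. All 4 tables held the same library values, except 1 cell turned into a date.

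With 1 library per group no test was run. Reads were estimated from the commonest low value of each library, taken as 1 read and refined on whole multiples (1.15, 1.11, 1.25 and 0.877 normalised counts per read). Of values under 50 reads, 63.5% to 72.8% were within 0.02 of a whole read, so a count test was not used. Intervals are exact binomial at 95% and cover counting error alone. Differences are log2(value + 1), which understates changes of low genes, and genes with a mean of at least 50 were compared at a 1.5-fold mark. Corrected values come from a loess fit in R 4.3.3 (span 0.3, degree 2) of each library on GC content and log10 length. The fit was tried on simulated data with a GC trend in WT SD and no length trend. No separate check was made for the mitochondrial transcripts. Nuclear copies were found with BLAST 2.17.0. Alternatives were other scalings, the correction, a pseudocount of 10, a 2-fold mark and no filter.

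The members and lists were chosen with earlier results of these data known. Named were all mRNAs and rRNAs, the highest tRNAs and nuclear copies, and from each nuclear list the members furthest up or down in a comparison. Of 57 and 75 listed nuclear genes, Nsun4 was not found.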

Additional observations from a re-analysis of the deposited data

Results flagged for a closer look

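In all, 9 mitochondrial mRNAs were lower in WT SD than in WT BL and higher in KO SD than in KO BL. The share of all genes with the sign patterns given here was not counted. Some signs rest on values near 0, such as mt-Co1 in the wildtype pair (-0.006) and mt-Atp8 in the knockout pair (0.01). The difference between genotypes was not tested, since each group had 1 library. On the log2 scale, the knockout response minus the wildtype response was 3.72 for mt-Atp8, 3.19 for mt-Nd4l, 2.60 for mt-Nd5, 1.83 for mt-Nd4, 1.74 for mt-Nd2 and 1.44 for mt-Cytb. It was 1.07 for mt-Co1, 0.94 for mt-Nd1 and 0.70 for mt-Atp6. After correction the same differences were 3.64 for mt-Atp8, 3.85 for mt-Nd4l, 1.54 for mt-Nd5, 0.84 for mt-Nd4, 0.98 for mt-Nd2 and 0.79 for mt-Cytb, and 0.26 for mt-Co1, 0.37 for mt-Nd1 and 0.35 for mt-Atp6. Of the 9, mt-Nd4 passed 1.5-fold in both pairs, and after correction none of the 9 had opposite signs in the pairs: 8 lay under 0 in both, and mt-Co1 lay above 0 in both (0.08 and 0.34). Read the other way, 6 transcripts were lower in KO BL than in WT BL and higher in KO SD than in WT SD, with the same differences of differences: mt-Atp8 (3.72), mt-Nd5 (2.60), mt-Nd2 (1.74), mt-Co1 (1.07), mt-Atp6 (0.70) and mt-Co2 (0.59). At baseline mt-Nd2 (-0.04) and mt-Atp6 (-0.05) lay near 0. After correction 5 of the 6 lay above 0 in both genotype comparisons, and mt-Atp8 alone kept opposite signs (-0.14 and 3.50).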

How the results depend on the processing

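Among the 15 abundant transcripts in the 4 comparisons, 31 differences were past 1.5-fold. Those that kept direction and stayed past 1.5-fold were 31 with a pseudocount of 10, 28 with equal library totals and 29 with equal totals outside the mitochondrial genome. They were 23 with equal mitochondrial mRNA and 22 after correction. Their sizes could still move, as for mt-Nd4l in WT SD over WT BL (-2.70, and -4.02 after correction). A pseudocount of 10 could hardly move them, since the lowest value was 1261 (mt-Nd6 in KO BL). Those that reversed were mt-Co3 (-0.028 and -0.15) and mt-Nd4 (-0.042 and -0.30) in KO SD over KO BL, under equal mitochondrial mRNA and after correction, and mt-Atp6 in KO SD over WT SD (-0.046 under equal mitochondrial mRNA). Counts that moved by more than a factor of 1.5, or from or to 0, were as follows. In WT SD over WT BL 1 mRNA was higher after correction in place of 3. In KO SD over KO BL the 5 higher became 3 with equal library totals, 1 with equal mitochondrial mRNA, 0 after correction and 3 at the 2-fold mark, and the 0 lower became 1 with equal mitochondrial mRNA and 3 after correction. In KO SD over WT SD the 1 lower became 3 with equal mitochondrial mRNA and 0 at the 2-fold mark. Smaller moves included the 9 higher in KO SD over WT SD, which became 6 with equal mitochondrial mRNA, 6 at the 2-fold mark and 10 after correction. The 7 lower in WT SD over WT BL became 6 with equal mitochondrial mRNA, 5 at the 2-fold mark and 8 after correction. The cause was not tested. Under equal library totals the all-gene median in the wildtype pair was -0.20 in place of -0.04, with 38.5% of calls higher in place of 50.5%, and under equal mitochondrial mRNA that of the knockout pair was -0.67 in place of -0.04, with 2.89% of calls higher in place of 49.6%. Without the rRNAs the mitochondrial share was 12.5%, 10.47%, 11.8% and 17.6% in WT BL, WT SD, KO BL and KO SD, and with nuclear copies added it was 13.44% in WT BL, 12.70% in KO BL and 19.45% in KO SD. Per length the rRNA share was 5.38%, 17.9%, 5.21% and 8.59%. Dropping the filter could change no count of mRNAs, since all 13 averaged 50 or more. No paired analysis was possible because each group has 1 library, and leaving out WT SD leaves no wildtype response to compare.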
